A study of Homo sapiens with 16 samples.

Results

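The HOX genes were followed across 6 lines derived from SW480 cells, a long-established human line of colon adenocarcinoma. They were chosen by name, as the protein-coding genes whose GENCODE symbol is HOX, a cluster letter from A to D and a number, which gave 39 of the 66023 genes of the count table. The naming rule uses no measured value, although the members were chosen with earlier results of these data known. Of the 39 genes, 11 lie in the HOXA cluster, 10 in HOXB, 9 in HOXC and 9 in HOXD. On hg38 with GENCODE 44, HOXA lies on chromosome 7 on the - strand, HOXB at chr17:48528526-48728750 on the - strand, HOXC at chr12:53938831-54056030 on the + strand and HOXD at chr2:176092721-176190907 on the + strand. The Parental line (n = 2) carried no construct. shScrambled (n = 2) carried a lentiviral shRNA with no target. shAjuba1 (n = 3) carried an shRNA against the coding region of AJUBA, and shAjuba2 (n = 3) an shRNA against a non-coding region of it. Ajuba OE (n = 3) expressed tagged AJUBA from the CMV promoter of a lentiviral vector, and Control (n = 3) carried that vector with the AJUBA sequence cut out. The lentiviral lines were selected with puromycin. AJUBA encodes a LIM domain protein of cell junctions and the nucleus. The paper calls the replicates of a line technical, so p-values here measure the spread between those samples, which may be technical, and each line stands for itself.

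HOX genes encode homeodomain transcription factors that give cells their position along the body axis. They sit in clusters in which the order on the chromosome follows the order of use along that axis, from the anterior genes of low number to the posterior genes of high number. Polycomb proteins keep a cluster silent through methylation of histone H3, trithorax proteins oppose them, and retinoic acid turns on the anterior genes first. HOX proteins bind DNA together with PBX and MEIS cofactors. The adult colon keeps a HOX code of its own, in which CDX2 and posterior HOX genes such as HOXB13 mark the hindgut.

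The count table held 30132396 to 69684675 read pairs in a sample. Levels are given as RPM, the count of a gene per 1000000 counted pairs of its sample, and levels of different genes are compared as RPKM, which divides RPM by the summed exon length in kilobases. The adjusted p is Benjamini-Hochberg adjusted over all genes tested with edgeR's quasi-likelihood test, the threshold is 0.05, and a log2 fold change is the line named first minus the line named second, with its SE. AJUBA averaged 82.5 RPM in shScrambled, 50.1 in shAjuba1 and 62.0 in shAjuba2, and 93.2 in Control and 525.9 in Ajuba OE. Its log2 fold change was -0.73 ± 0.08 (adjusted p = 2.19e-05) in shAjuba1, -0.46 ± 0.13 (adjusted p = 0.0773) in shAjuba2 and 2.56 ± 0.11 (adjusted p = 7.69e-05) in Ajuba OE, so the difference in shAjuba2 did not pass the threshold against shScrambled. With Parental as the control AJUBA was called lower in both knockdown lines, with -0.88 ± 0.08 (adjusted p = 1.15e-05) in shAjuba1 and -0.60 ± 0.13 (adjusted p = 0.0364) in shAjuba2. In bulk RNA, fewer cells that express a gene and less RNA per cell cannot be told apart. All 7 markers of colon epithelium exceeded 1 RPM on average, whereas 2 of 6 fibroblast markers, 0 of 4 immune markers and 1 of 3 endothelial markers did. The fibroblast gene DCN had 1 read pair in all samples together, the immune gene PTPRC 11 and the endothelial gene CDH5 5. The summed fibroblast markers, mainly COL1A1 and PDGFRB, ranged from 15.6 to 24.6 RPM in Control and from 6.21 to 10.4 RPM in Ajuba OE, and the part of this shift in the HOX differences was not tested.

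The HOXB cluster carried most HOX RNA in every sample. It held between 82.6% and 91.5% of the summed HOX RPM of a sample, HOXA held 4.50% to 11.1%, HOXC 3.06% to 5.10% and HOXD 0.751% to 2.13%. HOXB3 by itself made up 25.9% to 35.1% of all HOX RPM. Of the 39 genes, 33 averaged at least 1 RPM over the 16 samples, 13 at least 10 RPM and 4 at least 100 RPM, and those 4, HOXB3, HOXB4, HOXB6 and HOXB8, all lie in HOXB. Per exon length, HOXB6 was the highest with 104 RPKM, followed by HOXB4 with 70.8, HOXB3 with 56.7, HOXB8 with 49.7 and HOXB7 with 46.8, and the highest gene outside the cluster was HOXA9 with 13.7 RPKM. The lowest were HOXD3 with 0.0316, HOXB1 with 0.0718, HOXD12 with 0.0740 and HOXD1 with 0.0946 RPKM. Every gene of HOXA exceeded 1 RPM, as did 9 of 10 in HOXB, 8 of 9 in HOXC and 5 of 9 in HOXD. Within HOXD, HOXD9 was the highest with 2.10 RPKM, followed by HOXD10 with 2.04 and HOXD11 with 1.81 RPKM.

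The lines differed more in the amount of a cluster than in which cluster led. Summed HOXB RPM was 1317 ± 56.6 (SD) in shScrambled, 935 ± 63.2 in shAjuba1 and 1478 ± 222 in shAjuba2, and it was 1031 ± 56.5 in Parental, 1309.6 ± 153 in Control and 1024 ± 120.0 in Ajuba OE. Replicate 2 had the highest HOXB sum of its line in shAjuba2 (1726 RPM), in Control (1482 RPM) and in Ajuba OE (1161 RPM), which widened the spread of these 3 lines. Summed HOXD RPM, in the same order of lines, was 11.6 ± 0.0173, 22.8 ± 0.659, 18.7 ± 0.344, 17.4 ± 0.930, 17.1 ± 1.78 and 14.3 ± 1.65. The shScrambled line was thus the lowest in HOXD and shAjuba1 the highest, and no sample of shAjuba1 overlapped with any other line. HOXA was lowest in shAjuba2 (89.5 ± 7.14 RPM) and highest in shScrambled (124 ± 6.01 RPM), although Ajuba OE was the highest (125 RPM against 123) when library sizes were scaled by TMM. HOXC stayed between 45.6 RPM in shAjuba1 and 58.2 RPM in shAjuba2.

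**Figure D1:**
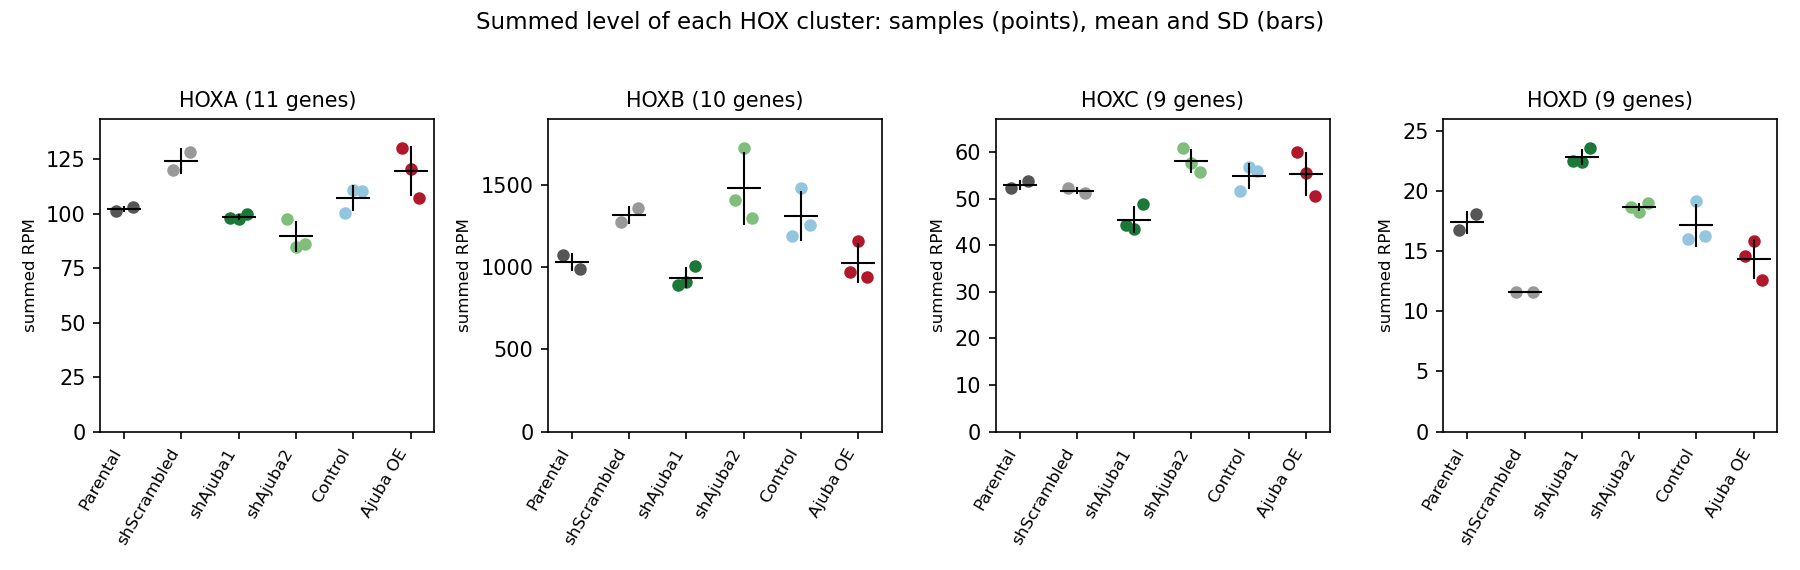
Summed RPM (vertical axis) of the genes of HOXA, HOXB, HOXC and HOXD in each sample of the 6 lines (horizontal axis), with points for samples and bars for the mean and SD. HOXD is lowest in shScrambled (11.6 RPM) and highest in shAjuba1 (22.8 RPM), and HOXB is lowest in shAjuba1 (935 RPM).

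**Figure D2:**
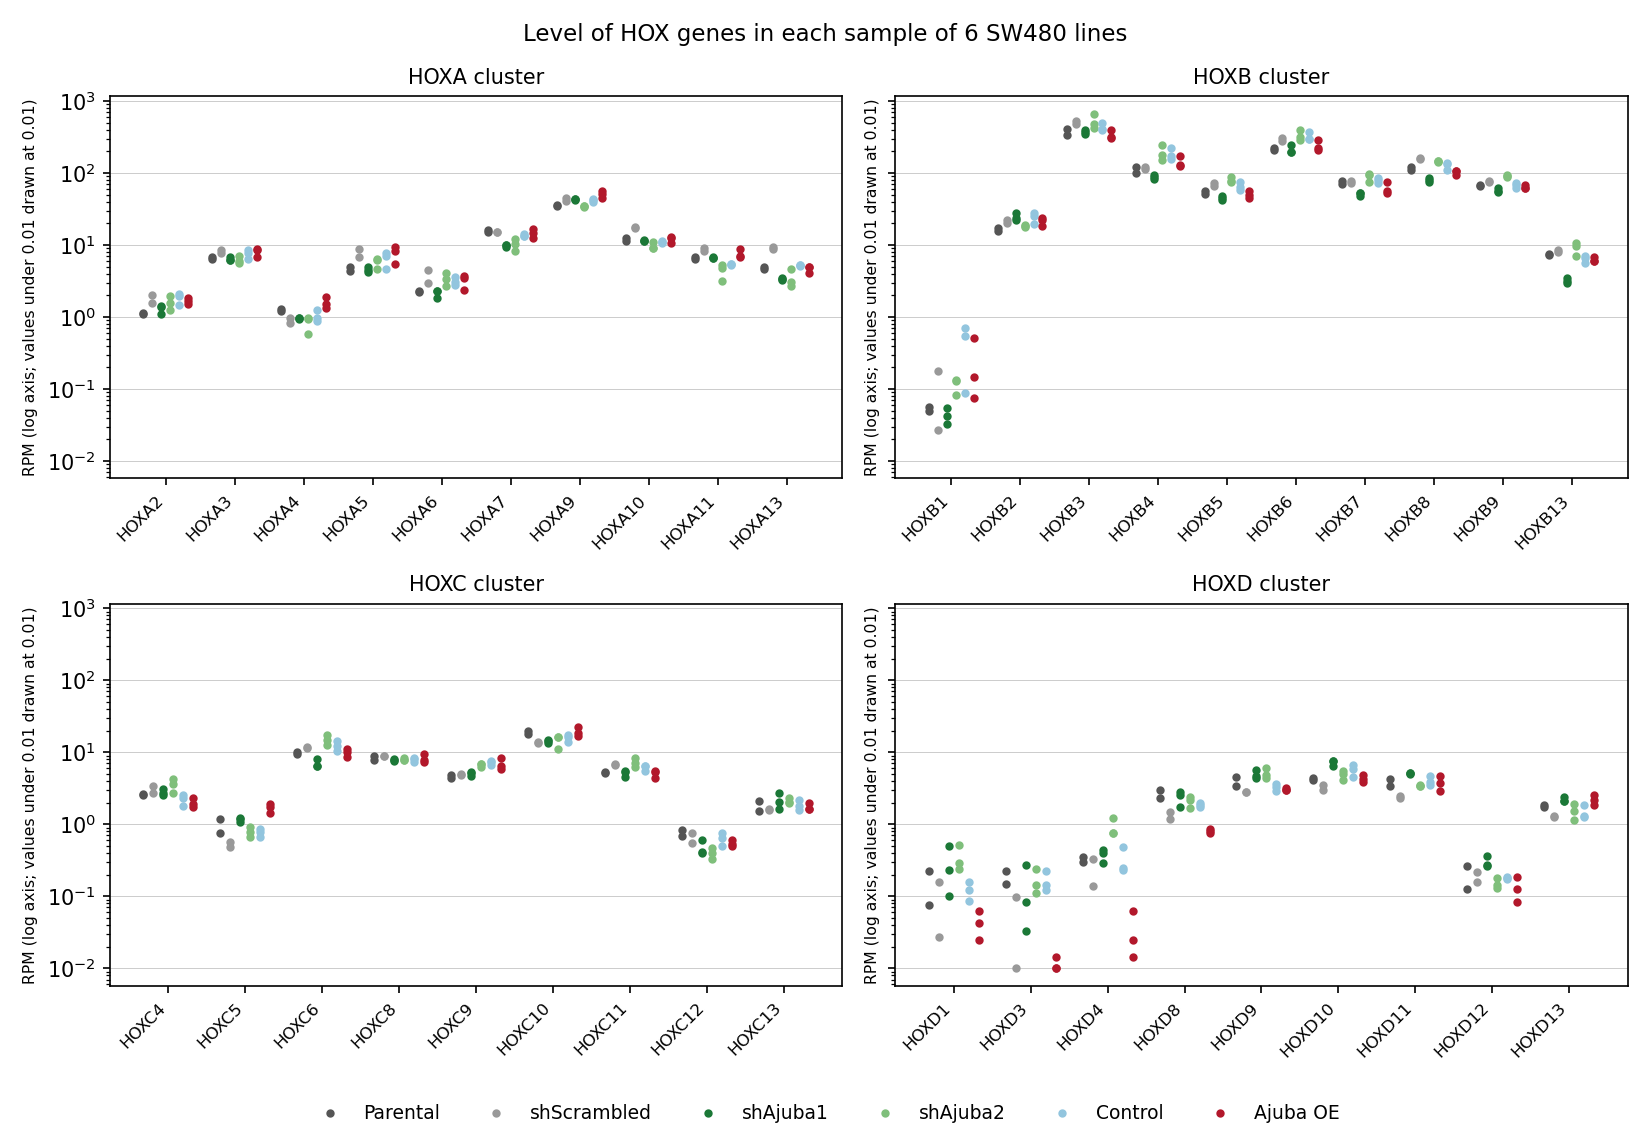
RPM of the HOX genes reported here (log vertical axis) in every sample, by cluster and in the order of the gene numbers, coloured by line. HOXB2 to HOXB9 lie above 10 RPM in every sample, and in HOXD4 the 3 Ajuba OE samples lie below the samples of all other lines.

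All 39 HOX genes passed the filter on low counts when the 16 samples were fitted together, and 33 of them differed among the 6 lines, where 45.7% of all tested genes did. The 6 that did not pass the threshold were HOXA2, HOXA6, HOXB3, HOXC8, HOXC13 and HOXD12. Of the 39 genes HOXC8 had the smallest ratio between lines, with a highest line mean of 8.87 RPM in shScrambled and a lowest of 7.79 RPM in shAjuba1.

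Against shScrambled, shAjuba1 had less RNA of most HOXA and HOXB genes and more of most HOXD genes. HOXA13 and HOXB13, the most posterior genes of their clusters, fell the most, and HOXD10, HOXD11 and HOXC5 rose by more than a log2 unit. In all, 23 of the 35 HOX genes tested were called, 6 higher and 17 lower, where 38.4% of all tested genes were called, 18.2% higher and 20.2% lower. A call with an absolute log2 fold change of 1 or more was made for 5 of the 35 and for 9.84% of all tested genes. HOXB1, HOXD1, HOXD3 and HOXD12 had too few counts to be tested. The lower genes were 7 of 11 in HOXA, 8 of 9 in HOXB and 2 of 9 in HOXC, and the higher ones 5 of 6 in HOXD and 1 of 9 in HOXC. The median log2 fold change was -0.49 in HOXA, -0.48 in HOXB, -0.14 in HOXC and 0.80 in HOXD, with -0.01 over all tested genes. With Parental as the control the count of calls fell to 15 of 36 HOX genes tested, 4 higher and 11 lower. That fit called 8056 of the 21150 genes tested in all. Of the 23 genes, 11 were called in the same direction against both controls. With replicate 2 of shScrambled left out, HOXA3, HOXA6, HOXC11, HOXD8 and HOXD13 lost their call, without its replicate 1 or without replicate 1 of shAjuba1 HOXA3, HOXA11 and HOXC11 did, and without replicate 2 of shAjuba1 HOXA3 did. The genes called against both controls were HOXA7, HOXA13, HOXB4, HOXB5, HOXB7, HOXB8, HOXB9, HOXB13, HOXC6, HOXD10 and HOXD11.

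Against the same shScrambled samples, fewer HOX genes were called in shAjuba2. A missing call there does not mean a smaller change than in shAjuba1. HOXA7 gave -0.62 ± 0.17 in shAjuba2 and -0.63 ± 0.10 in shAjuba1, with a call in shAjuba1 only. HOXA10, HOXA11 and HOXA13, neighbours at the posterior end of HOXA, were lower, and HOXD4 and HOXD9 were higher. These 5 genes of 36 tested compare with 7.63% of all tested genes, 3.19% higher and 4.44% lower, and with an absolute log2 fold change of 1 or more the calls were 3 of 36 and 4.35%. HOXB1, HOXD3 and HOXD12 were not tested. In HOXB, 0 of 9 tested genes were called by edgeR, with 1 at an unadjusted p under 0.05 and 1 called by DESeq2, HOXB4, and in HOXC 0 of 9 were called, with 2 at an unadjusted p under 0.05 and 0 called by DESeq2. The median log2 fold change was -0.44 in HOXA, 0.15 in HOXB, 0.18 in HOXC and 0.62 in HOXD. Over all tested genes, 4983 of 21969 were called with replicate 2 of shAjuba2 left out. The number was 492 of 21993 without its replicate 1 and 1385 of 21875 without its replicate 3. None of the 5 calls held with either shScrambled sample left out or with Parental as the control, whereas 11 HOX genes were called with replicate 2 of shAjuba2 left out, 2 without its replicate 1 and 3 without its replicate 3.

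Between Ajuba OE and Control 3 HOX genes passed the threshold. HOXD4 and HOXD8, on the anterior side of HOXD, were lower and HOXC5 was higher, out of 36 tested genes, where 5.43% of all tested genes were called, 2.39% higher and 3.03% lower. Each of the 3 was called with a change of more than a log2 unit, as were 2.6% of all tested genes. HOXD1, HOXD3 and HOXD12 had too few counts to be tested. edgeR called 0 of 11 genes in HOXA, with 3 at an unadjusted p under 0.05 and 1 called by DESeq2, HOXA11. It called 0 of 10 in HOXB, with 2 at an unadjusted p under 0.05 and 0 called by DESeq2, although 9 of the 10 log2 fold changes were negative. When same-numbered samples of both lines were treated as pairs, edgeR called 6 of these 10, all lower, and 3 of 11 in HOXA, all higher. That fit called 14 of the 36 HOX genes, 6 higher and 8 lower, beside 5140 of the 21140 genes tested in all. Whether equal replicate numbers are pairs is not known from the sample titles. Without pairing, the median log2 fold change was 0.17 in HOXA, -0.29 in HOXB, -0.02 in HOXC and -0.20 in HOXD. Relative to Parental, HOXD4 and HOXD8 were again lower and HOXA9 was higher. No HOX gene was called with replicate 3 of Control left out, and 1, HOXD8, was called with replicate 3 of Ajuba OE left out.

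**Figure D3:**
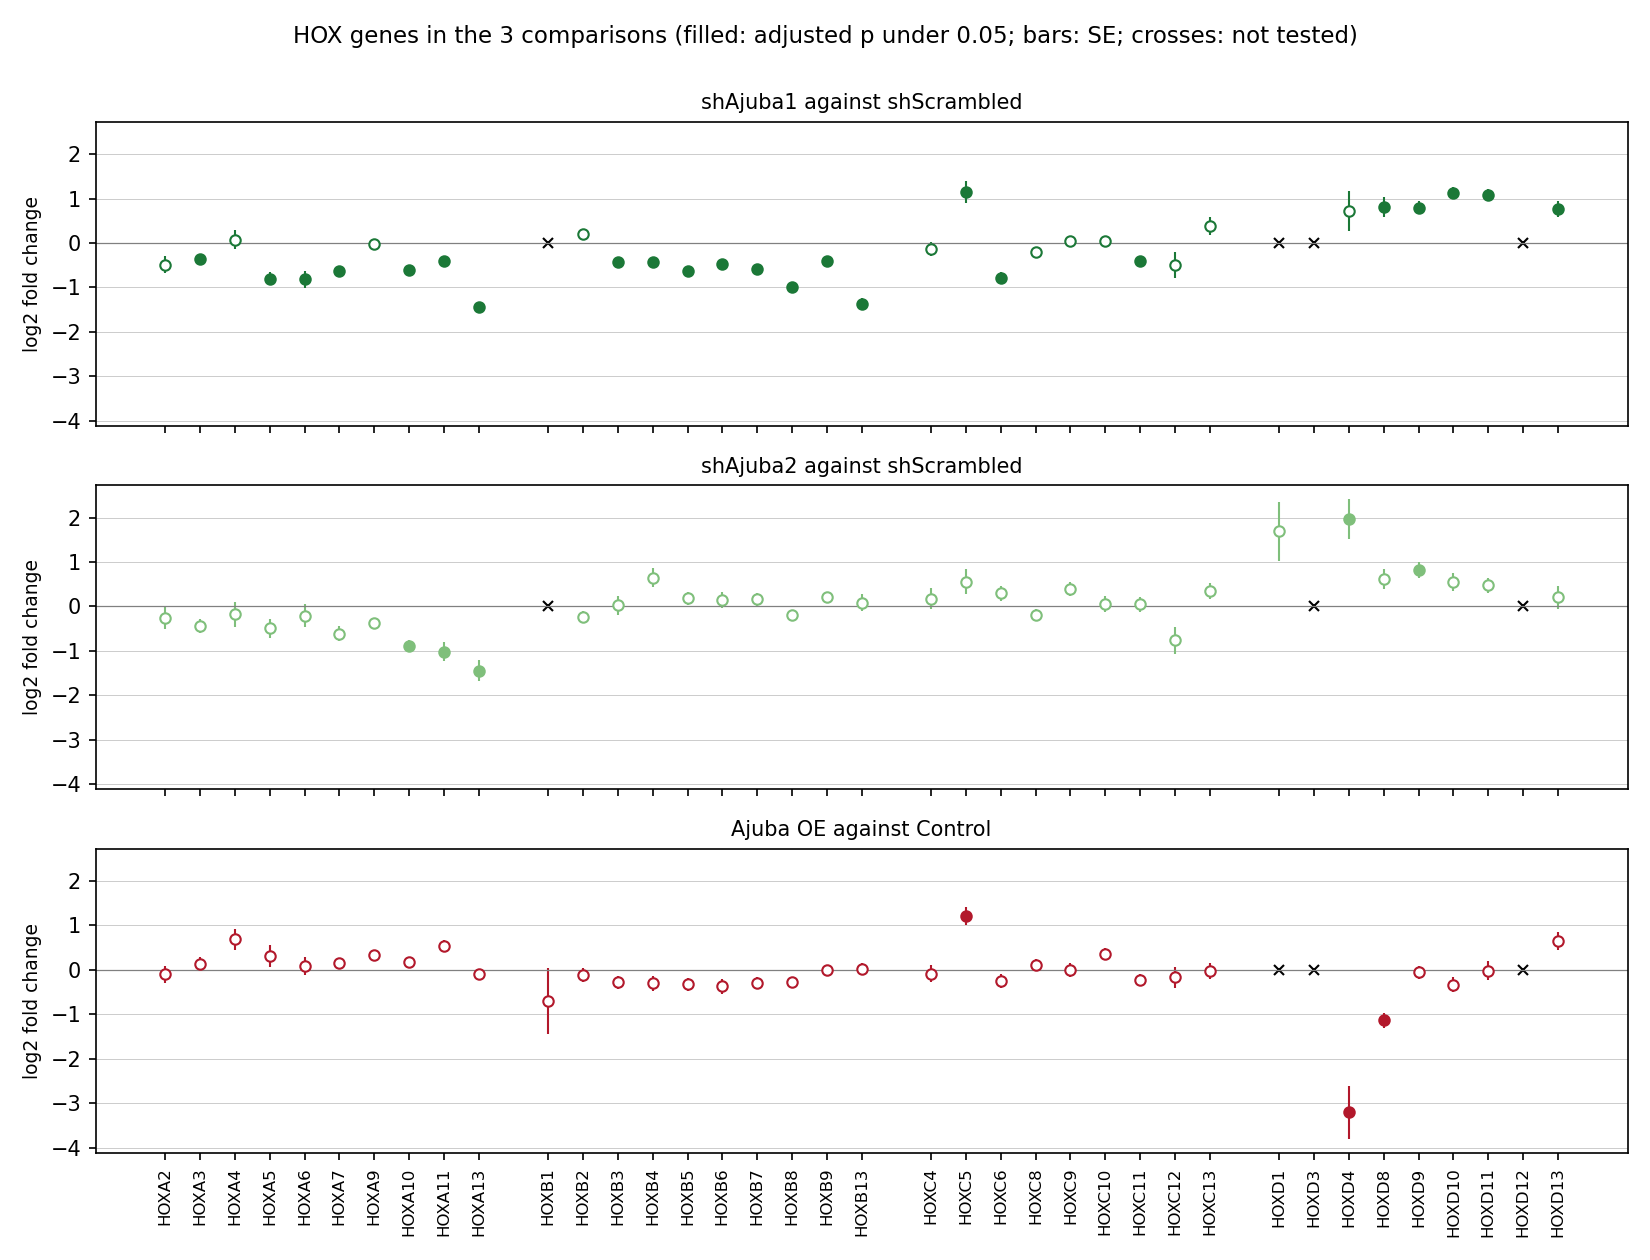
Log2 fold change (vertical axis) with its SE of the HOX genes reported here (horizontal axis, by cluster and number) in shAjuba1 and shAjuba2 against shScrambled and in Ajuba OE against Control. Filled points passed the threshold and crosses mark genes not tested. In shAjuba1 the filled HOXB points lie below 0 and the filled HOXD points above, and in Ajuba OE HOXD4 lies at -3.21.

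HOXB13, which marks the hindgut and the prostate, was lower in shAjuba1 than in any other line. Both shScrambled samples held 8.48 and 8.01 RPM of HOXB13 and the Parental samples 7.55 and 7.17 RPM. The 3 shAjuba1 samples held 3.54, 3.15 and 2.95 RPM, those of shAjuba2 10.6, 7.01 and 9.59 RPM, those of Control 6.58, 5.57 and 7.13 RPM and those of Ajuba OE 6.73, 5.92 and 5.98 RPM. The 3 shAjuba1 samples lay below the 13 others with no overlap. The log2 fold change against shScrambled was -1.36 ± 0.13 (adjusted p = 5.09e-06), and with Parental as the control it was -1.21 ± 0.13 (adjusted p = 3.85e-05). In shAjuba2 the value was 0.09 ± 0.19 (adjusted p = 0.804) and in Ajuba OE 0.02 ± 0.13 (adjusted p = 0.969). Tested directly, shAjuba1 differed from shAjuba2 by -1.44 ± 0.18 (adjusted p = 0.000622).

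HOXB8, which acts in the patterning of the trunk and in blood progenitors, fell by about a log2 unit in shAjuba1. The RPM of HOXB8 was 110.1 and 121 in Parental and 159 and 157 in shScrambled, 111, 139 and 135 in Control and 106, 105 and 94.4 in Ajuba OE. It was 79.9, 76.1 and 85.2 in shAjuba1 and 145, 141 and 147 in shAjuba2. The shAjuba1 samples lay below those of every other line, and the Ajuba OE samples were the next lowest. By edgeR, the log2 fold change was -0.99 ± 0.08 (adjusted p = 1.04e-06) in shAjuba1, -0.18 ± 0.11 (adjusted p = 0.346) in shAjuba2 and -0.27 ± 0.11 (adjusted p = 0.262) in Ajuba OE. With Parental as the control, shAjuba1 gave -0.56 ± 0.08 (adjusted p = 0.000316).

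HOXB3, the gene with the most HOX reads, spans several of its neighbours through a distant first exon. HOXB3 reached 349, 369 and 399 RPM in shAjuba1, 478, 662 and 428 RPM in shAjuba2 and 476 and 519 RPM in their control shScrambled. Its values were 402 and 336 RPM in Parental, 397, 492 and 410.0 RPM in Control and 305, 397 and 318 RPM in Ajuba OE. The shScrambled samples lay above those of Parental, shAjuba1 and Ajuba OE and overlapped with shAjuba2 and Control. The difference among the 6 lines did not pass the threshold (adjusted p = 0.0637). Against shScrambled, shAjuba1 gave -0.43 ± 0.09 (adjusted p = 0.00171), and with Parental as the control it gave -0.02 ± 0.09 (adjusted p = 0.904).

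HOXB4, known for its use in expanding blood stem cells, separated the knockdown lines from each other. In Control HOXB4 was at 157, 219 and 172 RPM, in Ajuba OE at 123, 169.9 and 129.7 RPM and in Parental at 123 and 100.0 RPM. The knockdown lines held 82.4, 88.8 and 94.1 RPM (shAjuba1) and 176, 244 and 153 RPM (shAjuba2), and shScrambled 115 and 122 RPM. All 3 shAjuba2 samples lay above and all 3 shAjuba1 samples below both shScrambled samples. On the log2 scale the change was -0.44 ± 0.08 (adjusted p = 0.00112) in shAjuba1 and 0.64 ± 0.21 (adjusted p = 0.109) in shAjuba2, and the direct difference between both lines was -1.06 ± 0.17 (adjusted p = 0.00268). In Ajuba OE it was -0.30 ± 0.18 (adjusted p = 0.429).

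HOXB6, the highest HOX gene per exon length, was lower in shAjuba1 than in shScrambled. HOXB6 measured 278 and 305 RPM in shScrambled, 198, 197 and 241 RPM in shAjuba1, 315, 400.4 and 285 RPM in shAjuba2, 224 and 209 RPM in Parental, 294, 376 and 297 RPM in Control and 221, 283 and 208 RPM in Ajuba OE. The values of shAjuba1 overlapped those of Parental and Ajuba OE but not those of shScrambled. edgeR gave a log2 fold change of -0.48 ± 0.10 (adjusted p = 0.00175) in shAjuba1, 0.15 ± 0.18 (adjusted p = 0.644) in shAjuba2 and -0.37 ± 0.16 (adjusted p = 0.273) in Ajuba OE. Set against Parental, shAjuba1 gave -0.06 ± 0.09 (adjusted p = 0.657). HOXB6 shares 32.9% of its exon bases with other genes, namely HOXB3 on the same strand (433 bases) and HOXB-AS3 on the other (425 bases).

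HOXB7, a gene often studied in colon and breast tumours, was lower in shAjuba1 against both controls. Both shScrambled samples held 77.98 and 73.8 RPM of HOXB7 and the Parental samples 70.8 and 76.9 RPM. The 3 shAjuba1 samples held 52.4, 53.5 and 47.7 RPM, those of shAjuba2 96.7, 73.8 and 92.6 RPM, those of Control 83.9, 73.3 and 79.1 RPM and those of Ajuba OE 75.7, 52.8 and 56.8 RPM. The shAjuba1 samples lay below those of every other line except that replicate 2 of Ajuba OE fell within their range. The log2 change came to -0.58 ± 0.09 (adjusted p = 0.000233) against shScrambled and -0.56 ± 0.09 (adjusted p = 0.000528) with Parental as the control. It was 0.16 ± 0.14 (adjusted p = 0.5099) in shAjuba2 and -0.29 ± 0.13 (adjusted p = 0.305) in Ajuba OE. The remaining HOXB genes, HOXB2, HOXB5 and HOXB9, averaged 21.4, 60.5 and 70.5 RPM. HOXB5 and HOXB9 were lower in shAjuba1 (-0.63 ± 0.09, adjusted p = 0.000128 and -0.41 ± 0.08, adjusted p = 0.00196), whereas HOXB2 gave 0.21 ± 0.10 (adjusted p = 0.134). Relative to Parental, HOXB2 was called higher in shAjuba1, with 0.55 ± 0.11 (adjusted p = 0.00217). HOXB1 had 143 read pairs in all samples together, of which 61 came from Control and 46 from Ajuba OE, and its RPM in Control ran from 0.0874 to 0.694.

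Within HOXA, which is used along the gut, limbs and genital tract, the posterior genes HOXA10, HOXA11 and HOXA13 were called in both knockdown lines. HOXA13, the most posterior gene of the cluster and a hindgut gene, stood out in shScrambled. The RPM of HOXA13 was 4.59 and 5.001 in Parental and 9.24 and 8.84 in shScrambled, 5.33, 5.18 and 5.31 in Control and 5.01, 4.94 and 4.12 in Ajuba OE. It was 3.45, 3.39 and 3.23 in shAjuba1 and 4.64, 2.66 and 3.03 in shAjuba2. Both shScrambled samples lay above the 14 others, and the shAjuba1 samples were lower than those of Parental, Control and Ajuba OE. Its log2 fold change was -1.44 ± 0.12 (adjusted p = 1.68e-06) in shAjuba1 and -1.44 ± 0.23 (adjusted p = 0.0121) in shAjuba2. With Parental as the control, it was -0.54 ± 0.13 (adjusted p = 0.00785) in shAjuba1 and -0.54 ± 0.24 (adjusted p = 0.167) in shAjuba2, and Parental against shScrambled gave -0.90 ± 0.13 (adjusted p = 1.44e-05).

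HOXA11, known for its part in limb and uterus, was lowest in shAjuba2. HOXA11 reached 6.59, 6.67 and 6.73 RPM in shAjuba1, 5.35, 3.13 and 4.84 RPM in shAjuba2 and 9.05 and 8.33 RPM in their control shScrambled. Its values were 6.91 and 6.46 RPM in Parental, 5.27, 5.45 and 5.44 RPM in Control and 8.68, 7.02 and 6.76 RPM in Ajuba OE. The shAjuba2 samples were below all others except that replicate 1 reached the Control values. By edgeR, the log2 fold change was -1.02 ± 0.22 (adjusted p = 0.0331) in shAjuba2, -0.40 ± 0.11 (adjusted p = 0.0141) in shAjuba1 and 0.54 ± 0.12 (adjusted p = 0.0514) in Ajuba OE. Set against Parental, shAjuba2 gave -0.65 ± 0.23 (adjusted p = 0.105) and shAjuba1 -0.03 ± 0.11 (adjusted p = 0.855), so that neither passed the threshold. Parental itself was lower than shScrambled (-0.37 ± 0.13, adjusted p = 0.0279). HOXA11 shares 27.2% of its exon bases with the antisense gene HOXA11-AS.

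HOXA10, its neighbour, was highest in shScrambled. In Control HOXA10 was at 10.7, 10.995 and 11.5 RPM, in Ajuba OE at 12.8, 12.3 and 10.7 RPM and in Parental at 12.4 and 11.5 RPM. The knockdown lines held 11.3, 11.4 and 11.9 RPM (shAjuba1) and 10.9, 9.08 and 9.12 RPM (shAjuba2), and shScrambled 16.98 and 17.7 RPM. The shScrambled samples lay above the 14 others, which covered 9.08 to 12.8 RPM. On the log2 scale the change was -0.60 ± 0.10 (adjusted p = 0.0003697) in shAjuba1, -0.89 ± 0.14 (adjusted p = 0.0107) in shAjuba2 and -0.53 ± 0.10 (adjusted p = 0.000354) in Parental against shScrambled. Relative to Parental, shAjuba1 gave -0.08 ± 0.10 (adjusted p = 0.569) and shAjuba2 -0.37 ± 0.14 (adjusted p = 0.125).

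HOXA9, a gene known from leukaemia, was the highest of HOXA per exon length. HOXA9 measured 41.04 and 45.6 RPM in shScrambled, 42.7, 44.04 and 43.1 RPM in shAjuba1, 35.2, 33.2 and 34.8 RPM in shAjuba2, 35.2 and 35.6 RPM in Parental, 39.9, 43.96 and 41.7 RPM in Control and 55.5, 50.6 and 45.01 RPM in Ajuba OE. Parental and shAjuba2 shared the lowest range and Ajuba OE the highest, with the lowest Ajuba OE sample among the values of shScrambled. edgeR gave a log2 fold change of -0.02 ± 0.09 (adjusted p = 0.905) in shAjuba1, -0.38 ± 0.12 (adjusted p = 0.0882) in shAjuba2 and 0.33 ± 0.10 (adjusted p = 0.124) in Ajuba OE. With Parental as the control, Ajuba OE gave 0.56 ± 0.11 (adjusted p = 0.0274).

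HOXA7 was lower in both knockdown lines, with a call in shAjuba1. Both shScrambled samples held 15.1 and 15.2 RPM of HOXA7 and the Parental samples 15.2 and 16.2 RPM. The 3 shAjuba1 samples held 10.2, 9.36 and 10.2 RPM, those of shAjuba2 12.3, 8.24 and 10.2 RPM, those of Control 13.3, 13.3 and 14.1 RPM and those of Ajuba OE 16.5, 12.7 and 14.5 RPM. The shAjuba1 and shAjuba2 samples lay below the samples of the other 4 lines. The log2 change came to -0.63 ± 0.10 (adjusted p = 0.0003396) in shAjuba1 and -0.62 ± 0.17 (adjusted p = 0.0704) in shAjuba2, and with Parental as the control shAjuba1 gave -0.70 ± 0.10 (adjusted p = 0.0002996). HOXA-AS3 covers 62.5% of the exon bases of HOXA7 on the other strand, and HOXA-AS3 itself had a log2 fold change of -0.89 ± 0.14 (adjusted p = 0.000321) in shAjuba1. The strand setting of the counting is not given in the sources used here, so the reads of these genes cannot be told apart.

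HOXA3, which patterns the pharyngeal arches, had a ratio of 1.31 between its highest and lowest line mean. The RPM of HOXA3 was 6.38 and 6.87 in Parental and 7.74 and 8.61 in shScrambled, 6.38, 8.61 and 7.86 in Control and 8.45, 8.69 and 6.91 in Ajuba OE. It was 6.15, 6.17 and 6.87 in shAjuba1 and 6.08, 6.96 and 5.64 in shAjuba2. The shAjuba1 samples were below both shScrambled samples and overlapped with Parental. Its log2 fold change was -0.37 ± 0.12 (adjusted p = 0.0239) in shAjuba1, and with Parental as the control it was -0.08 ± 0.12 (adjusted p = 0.6197). HOXA5 and HOXA6 were lower in shAjuba1 as well (-0.80 ± 0.14, adjusted p = 0.000675 and -0.82 ± 0.19, adjusted p = 0.00515), and with Parental as the control they gave -0.06 ± 0.13 (adjusted p = 0.747) and -0.09 ± 0.17 (adjusted p = 0.702). HOXA2 and HOXA4 averaged 1.57 and 1.09 RPM and were not called in the 3 comparisons.

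In HOXC, HOXC6 and HOXC5 moved in opposite directions in shAjuba1. HOXC6, studied in several carcinomas, was lowest there. HOXC6 reached 6.41, 6.47 and 7.95 RPM in shAjuba1, 14.96, 17.1 and 12.6 RPM in shAjuba2 and 11.5 and 11.99 RPM in their control shScrambled. Its values were 9.55 and 10.2 RPM in Parental, 10.4, 14.5 and 12.1 RPM in Control and 10.002, 10.9 and 8.67 RPM in Ajuba OE. The shAjuba1 samples lay below all others and the shAjuba2 samples above all others but Control replicate 2. By edgeR, the log2 fold change was -0.78 ± 0.12 (adjusted p = 0.000241) against shScrambled and -0.54 ± 0.12 (adjusted p = 0.00536) with Parental as the control. It was 0.29 ± 0.17 (adjusted p = 0.317) in shAjuba2, -0.26 ± 0.15 (adjusted p = 0.444) in Ajuba OE and -1.05 ± 0.16 (adjusted p = 0.00175) between the knockdown lines.

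HOXC5 was the single member called higher in Ajuba OE. In Control HOXC5 was at 0.874, 0.775 and 0.6603 RPM, in Ajuba OE at 1.89, 1.46 and 1.76 RPM and in Parental at 1.197 and 0.765 RPM. The knockdown lines held 1.09, 1.19 and 1.24 RPM (shAjuba1) and 0.666, 0.788 and 0.926 RPM (shAjuba2), and shScrambled 0.576 and 0.477 RPM. The Ajuba OE samples lay above all others. In read pairs these values were 132, 70 and 70 in Ajuba OE and 30, 38 and 29 in Control. On the log2 scale the change was 1.21 ± 0.19 (adjusted p = 0.0125) in Ajuba OE, 1.15 ± 0.24 (adjusted p = 0.00228) in shAjuba1 and 0.56 ± 0.28 (adjusted p = 0.256) in shAjuba2. The call in Ajuba OE was lost without replicate 3 of Control or replicate 3 of Ajuba OE. Set against Parental, Ajuba OE gave 0.87 ± 0.26 (adjusted p = 0.106) and shAjuba1 0.25 ± 0.23 (adjusted p = 0.417). Of the exon bases of HOXC5, 67.3% are shared with readthrough genes on the same strand, whose own rows held 7 and 2 read pairs over all samples, and how reads on shared exons were assigned is not given in the sources used here.

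HOXC10, the HOXC gene with the most reads, was highest in Parental and Ajuba OE. HOXC10 measured 13.99 and 13.3 RPM in shScrambled, 14.1, 13.5 and 14.6 RPM in shAjuba1, 16.5, 11.1 and 16.2 RPM in shAjuba2, 18.2 and 19.6 RPM in Parental, 16.1, 13.9 and 17.3 RPM in Control and 22.4, 17.1 and 18.6 RPM in Ajuba OE. Both of these lines overlapped, and shScrambled and shAjuba1 lay below them. edgeR gave a log2 fold change of 0.36 ± 0.13 (adjusted p = 0.195) in Ajuba OE and 0.48 ± 0.10 (adjusted p = 0.0007404) in Parental against shScrambled, and with Parental as the control shAjuba1 gave -0.45 ± 0.10 (adjusted p = 0.00349).

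HOXC8, HOXC9 and HOXC11 complete the 5 HOXC genes with the highest RPM. Both shScrambled samples held 8.997 and 8.75 RPM of HOXC8 and the Parental samples 8.83 and 7.71 RPM. The 3 shAjuba1 samples held 7.62, 7.73 and 8.004 RPM, those of shAjuba2 7.93, 7.73 and 8.25 RPM, those of Control 7.31, 8.16 and 8.42 RPM and those of Ajuba OE 9.57, 7.896 and 7.32 RPM. For HOXC8 the shScrambled samples lay above those of shAjuba1, shAjuba2 and Control and overlapped with Parental and Ajuba OE. The RPM of HOXC9 was 4.34 and 4.89 in Parental and 4.99 and 4.83 in shScrambled, 6.61, 7.65 and 7.24 in Control and 6.501, 8.23 and 5.91 in Ajuba OE. It was 5.401, 4.68 and 5.08 in shAjuba1 and 6.28, 6.98 and 6.77 in shAjuba2. For HOXC9 the shAjuba2, Control and Ajuba OE samples lay above those of the other 3 lines. HOXC11 reached 4.52, 5.31 and 5.52 RPM in shAjuba1, 8.21, 7.21 and 6.17 RPM in shAjuba2 and 6.58 and 6.86 RPM in their control shScrambled. Its values were 5.26 and 5.23 RPM in Parental, 6.55, 6.38 and 5.56 RPM in Control and 5.28, 5.46 and 4.35 RPM in Ajuba OE. HOXC11 was lower in shAjuba1 than in shScrambled (-0.42 ± 0.13, adjusted p = 0.02103), with -0.07 ± 0.13 (adjusted p = 0.704) when Parental was the control. HOXC9 gave 0.40 ± 0.15 (adjusted p = 0.154) in shAjuba2. HOXC4, HOXC12 and HOXC13 averaged 2.69, 0.561 and 1.90 RPM and were not called in the 3 comparisons.

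In HOXD, which patterns the limbs, the genital bud and the end of the gut, the genes called in Ajuba OE, HOXD4 and HOXD8, were lower and those called in shAjuba1, HOXD8, HOXD9, HOXD10, HOXD11 and HOXD13, were higher. The promoters printed here show the sequence at the genes concerned, HOXD4 and HOXD8, which fell in Ajuba OE, HOXD10 and HOXD11, which rose in shAjuba1, and HOXA13, which fell in shAjuba1 and shAjuba2. RefSeq promoters (GRCh38.p14) of 250 bases before and 50 after the start were at hand for 20 of the 39 HOX genes, HOXB13 and HOXC5 not among them. Capitals mark matches to TGATNNAT, a site shared by HOX and PBX proteins, or to TGACAG, the site of MEIS proteins, searched on both strands.
HOXD4, chr2:176151300-176151599, + strand: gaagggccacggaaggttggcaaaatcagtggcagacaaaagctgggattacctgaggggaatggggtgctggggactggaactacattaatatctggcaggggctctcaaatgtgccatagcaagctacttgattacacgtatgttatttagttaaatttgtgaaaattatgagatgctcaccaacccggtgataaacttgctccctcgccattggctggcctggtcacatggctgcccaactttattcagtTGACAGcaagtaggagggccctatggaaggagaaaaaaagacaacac
HOXD8, chr2:176129455-176129754, + strand: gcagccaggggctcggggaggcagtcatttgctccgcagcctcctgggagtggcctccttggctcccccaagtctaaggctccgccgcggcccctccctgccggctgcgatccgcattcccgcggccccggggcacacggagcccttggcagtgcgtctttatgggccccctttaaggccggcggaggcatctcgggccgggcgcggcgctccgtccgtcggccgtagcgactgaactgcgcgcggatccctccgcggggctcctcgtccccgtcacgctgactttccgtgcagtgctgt
HOXD10, chr2:176116528-176116827, + strand: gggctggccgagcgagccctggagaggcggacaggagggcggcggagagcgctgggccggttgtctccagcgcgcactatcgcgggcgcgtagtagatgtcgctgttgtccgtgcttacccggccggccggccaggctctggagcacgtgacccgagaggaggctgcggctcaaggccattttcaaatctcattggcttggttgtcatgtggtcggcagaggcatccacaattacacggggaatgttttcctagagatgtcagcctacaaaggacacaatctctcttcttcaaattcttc
HOXD11, chr2:176107030-176107329, + strand: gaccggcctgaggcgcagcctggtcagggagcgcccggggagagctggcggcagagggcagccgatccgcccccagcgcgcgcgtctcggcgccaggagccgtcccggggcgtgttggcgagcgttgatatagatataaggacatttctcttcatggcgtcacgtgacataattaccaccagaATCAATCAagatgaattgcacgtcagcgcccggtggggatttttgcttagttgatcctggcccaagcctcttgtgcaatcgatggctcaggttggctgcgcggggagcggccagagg
HOXA13, chr7:27200042-27200341, - strand: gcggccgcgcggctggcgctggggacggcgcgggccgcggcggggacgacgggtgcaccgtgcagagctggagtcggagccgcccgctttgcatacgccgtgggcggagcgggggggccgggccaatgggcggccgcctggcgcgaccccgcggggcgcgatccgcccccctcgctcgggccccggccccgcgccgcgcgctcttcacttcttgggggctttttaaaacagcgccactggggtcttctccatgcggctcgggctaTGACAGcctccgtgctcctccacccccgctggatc
TGATNNAT occurs in 7.40% of the 35116 promoters of the RefSeq table and TGACAG in 15.8%. HOXD11 holds 1 match of TGATNNAT, HOXD4 and HOXA13 hold 1 match of TGACAG each, HOXD8 and HOXD10 hold neither, and no base is marked by both motifs. The windows differ in CG dinucleotides, with 4 in HOXD4, 34 in HOXD8, 23 in HOXD10, 27 in HOXD11 and 44 in HOXA13, where the median over all promoters is 14.

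HOXD4 was close to silent in Ajuba OE and highest in shAjuba2. The read pairs were 8, 24 and 11 in Control and 1, 3 and 1 in Ajuba OE, 12 and 7 in shScrambled, 35, 54 and 37 in shAjuba2, 14, 12 and 16 in shAjuba1 and 14 and 16 in Parental. In Control HOXD4 was at 0.233, 0.4896 and 0.2505 RPM, in Ajuba OE at 0.0144, 0.0625 and 0.0251 RPM and in Parental at 0.349 and 0.299 RPM. The knockdown lines held 0.293, 0.398 and 0.442 RPM (shAjuba1) and 0.752, 1.22 and 0.761 RPM (shAjuba2), and shScrambled 0.329 and 0.139 RPM. The Ajuba OE samples lay below and the shAjuba2 samples above all others. The log2 change came to -3.21 ± 0.60 (adjusted p = 0.0235) in Ajuba OE and 1.97 ± 0.45 (adjusted p = 0.0408) in shAjuba2, with 0.72 ± 0.44 (adjusted p = 0.221) in shAjuba1. From the summed counts, Ajuba OE held 0.0940 of the Control level (95% exact interval 0.0291 to 0.237, which covers counting error only). Relative to Parental, Ajuba OE gave -3.19 ± 0.57 (adjusted p = 0.0167) and shAjuba2 1.43 ± 0.35 (adjusted p = 0.0502), and the call in Ajuba OE was lost without replicate 1 or 3 of Ajuba OE and without replicate 2 or 3 of Control.

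HOXD8 was lowest in Ajuba OE as well. HOXD8 measured 1.48 and 1.19 RPM in shScrambled, 2.53, 2.79 and 1.74 RPM in shAjuba1, 2.43, 1.71 and 2.202 RPM in shAjuba2, 2.32 and 2.95 RPM in Parental, 1.75, 1.98 and 1.84 RPM in Control and 0.861, 0.7501 and 0.805 RPM in Ajuba OE. The Ajuba OE samples lay below all others, and the shScrambled samples were the next lowest. Its log2 fold change was -1.14 ± 0.17 (adjusted p = 0.00815) in Ajuba OE, and -1.66 ± 0.21 (adjusted p = 0.00376) with Parental as the control. In shAjuba1 it was 0.81 ± 0.23 (adjusted p = 0.0129) against shScrambled and turned to -0.20 ± 0.21 (adjusted p = 0.469) with Parental as the control. The antisense gene HOXD-AS2 covers 24.4% of the exon bases of HOXD8 and gave -0.14 ± 0.35 (adjusted p = 0.881) in Ajuba OE and 1.32 ± 0.30 (adjusted p = 0.00356) in shAjuba1. The call in Ajuba OE was lost without replicate 3 of Control.

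HOXD3 and HOXD1, the remaining anterior genes, had few counts. HOXD3 had 5, 6 and 10 read pairs in Control and 1, 0 and 0 in Ajuba OE, a ratio of 0.0385 (95% exact interval 0.000931 to 0.239). HOXD1 had 3, 6 and 7 in Control and 3, 3 and 1 in Ajuba OE, a ratio of 0.354 (0.123 to 0.909). Without a filter on low counts HOXD3 was called in Ajuba OE (-4.16 ± 0.96, adjusted p = 0.0155) and HOXD1 was not (-1.35 ± 0.70, adjusted p = 0.473). In the same setting HOXD1 was called higher in shAjuba2 (1.68 ± 0.55, adjusted p = 0.0493) but not with the filter (1.69 ± 0.66, adjusted p = 0.157). In shAjuba1 HOXD1 gave 1.41 ± 0.56 (adjusted p = 0.0517) without the filter. HOXD3 then gave 1.16 ± 0.82 (adjusted p = 0.397) in shAjuba1 and 1.44 ± 0.76 (adjusted p = 0.315) in shAjuba2. MIR10B, the gene of a microRNA hairpin that ends 1138 bases before the start of HOXD4, was looked at after these values were seen. It had 24, 45 and 33 read pairs in Control, 2, 4 and 3 in Ajuba OE, 14 and 28 in shScrambled and 107, 105 and 81 in shAjuba2. Its log2 fold change was -3.66 ± 0.39 (adjusted p = 0.00206) in Ajuba OE and 2.08 ± 0.29 (adjusted p = 0.00779) in shAjuba2. Measured against Parental, MIR10B gave -3.91 ± 0.44 (adjusted p = 0.00211) in Ajuba OE. The rise in shAjuba2 was smaller against Parental, at 1.0995 ± 0.25 (adjusted p = 0.0429), and shAjuba1 gave -0.16 ± 0.22 (adjusted p = 0.612). In an mRNA library such reads come from longer transcripts over the hairpin and do not measure the mature microRNA.

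HOXD10 and HOXD11, posterior genes of the limb and trunk, rose in shAjuba1. Both shScrambled samples held 2.96 and 3.498 RPM of HOXD10 and the Parental samples 4.19 and 4.35 RPM. The 3 shAjuba1 samples held 7.45, 6.47 and 7.54 RPM, those of shAjuba2 5.07, 5.47 and 4.12 RPM, those of Control 4.57, 6.65 and 5.897 RPM and those of Ajuba OE 4.28, 4.79 and 3.897 RPM. For HOXD10 the shAjuba1 samples lay above all others except that Control replicate 2 fell between them. The RPM of HOXD11 was 4.21 and 3.43 in Parental and 2.47 and 2.33 in shScrambled, 3.87, 4.67 and 3.46 in Control and 3.69, 4.73 and 2.87 in Ajuba OE. It was 5.15, 5.21 and 4.97 in shAjuba1 and 3.42, 3.51 and 3.396 in shAjuba2. For HOXD11 the shAjuba1 samples lay above all others. By edgeR, the log2 fold change was 1.13 ± 0.14 (adjusted p = 4.18e-05) for HOXD10 and 1.08 ± 0.14 (adjusted p = 7.01e-05) for HOXD11. With Parental as the control, these were 0.72 ± 0.13 (adjusted p = 0.00112) and 0.40 ± 0.14 (adjusted p = 0.0409). Ajuba OE gave -0.34 ± 0.17 (adjusted p = 0.353) and -0.02 ± 0.21 (adjusted p = 0.973). HOXD10 and HOXD11 share 452 exon bases with each other.

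HOXD9 and HOXD13 were lowest in shScrambled on average. HOXD9 reached 4.35, 4.75 and 5.69 RPM in shAjuba1, 4.902, 4.41 and 6.01 RPM in shAjuba2 and 2.798 and 2.802 RPM in their control shScrambled. Its values were 3.44 and 4.55 RPM in Parental, 3.32, 3.67 and 2.94 RPM in Control and 2.98, 3.19 and 2.97 RPM in Ajuba OE. The shAjuba1 and shAjuba2 values of HOXD9 overlapped with each other and lay above shScrambled. Its log2 fold change was 0.80 ± 0.15 (adjusted p = 0.00132) in shAjuba1 and 0.82 ± 0.19 (adjusted p = 0.0419) in shAjuba2, and with Parental as the control it was 0.26 ± 0.16 (adjusted p = 0.2401) and 0.29 ± 0.21 (adjusted p = 0.354). In Control HOXD13 was at 1.83, 1.31 and 1.28 RPM, in Ajuba OE at 2.54, 2.17 and 1.86 RPM and in Parental at 1.87 and 1.75 RPM. The knockdown lines held 2.11, 2.42 and 2.098 RPM (shAjuba1) and 1.53, 1.15 and 1.91 RPM (shAjuba2), and shScrambled 1.32 and 1.25 RPM. HOXD13, the gene of the digits and the anal canal, gave 0.76 ± 0.18 (adjusted p = 0.00505) in shAjuba1 and 0.65 ± 0.21 (adjusted p = 0.136) in Ajuba OE. HOXD12 averaged 0.191 RPM and was tested between the knockdown lines, where it gave 1.02 ± 0.34 (adjusted p = 0.0648).

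**Figure D4:**
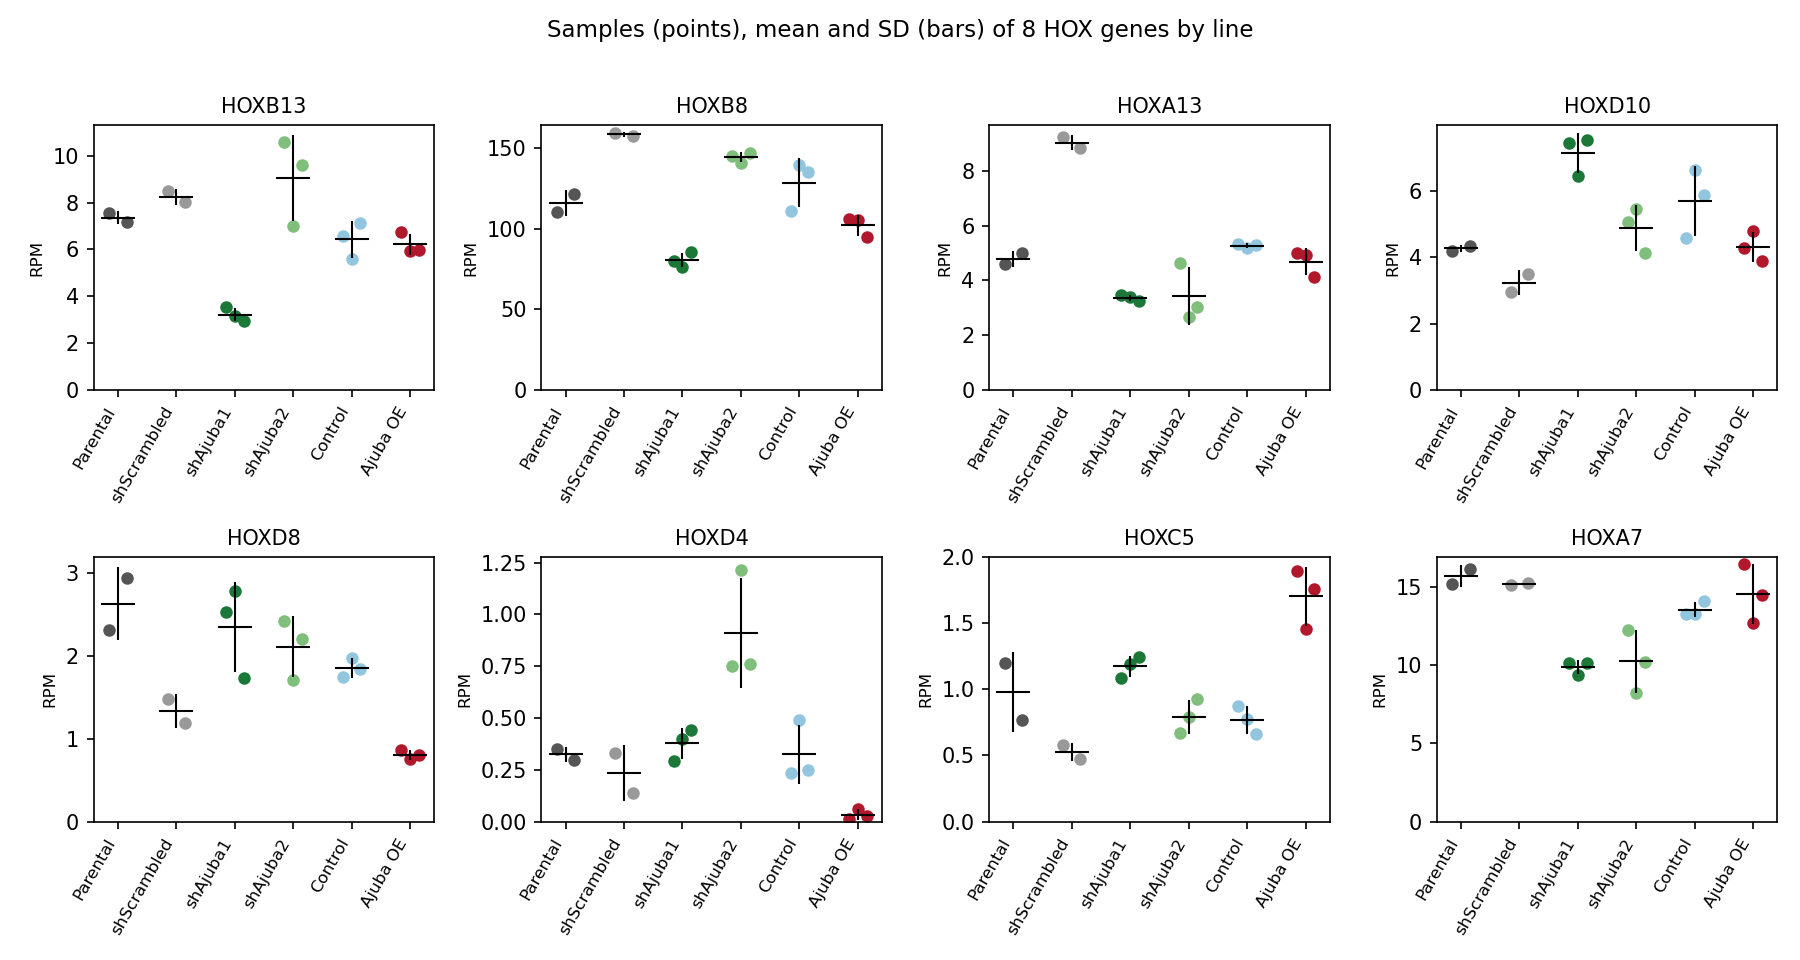
RPM (vertical axis, from 0) of HOXB13, HOXB8, HOXA13, HOXD10, HOXD8, HOXD4, HOXC5 and HOXA7 in each sample of the 6 lines, with points for samples and bars for the mean and SD. The shAjuba1 samples are lowest in HOXB13 (3.21 RPM on average), the shScrambled samples highest in HOXA13 (9.04 RPM) and the Ajuba OE samples lowest in HOXD8 (0.805 RPM) and HOXD4 (0.0340 RPM).

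The control lines bear on these results because both knockdown comparisons rest on the same 2 shScrambled samples. Parental differed from shScrambled in 19 of the 35 HOX genes tested, 6 higher and 13 lower, where 30.7% of all tested genes were called, 15.6% higher and 15% lower. The lower genes were 7 of 11 in HOXA, 5 of 9 in HOXB and 1 of 9 in HOXC, and the higher ones included 2 of 9 in HOXC and 3 of 6 in HOXD. HOXD8 was the single gene called with a change of at least a log2 unit (1.01 ± 0.21, adjusted p = 0.000948), where 5.05% of all tested genes were. HOXB13, HOXB7 and HOXB4 were not called there, with -0.16 ± 0.13 (adjusted p = 0.3595), -0.03 ± 0.08 (adjusted p = 0.784) and -0.08 ± 0.09 (adjusted p = 0.487). Control and Parental, on the other hand, differed in 0 of 36 HOX genes by edgeR, with 12 at an unadjusted p under 0.05 and 2 called by DESeq2, HOXB4 and HOXB6, where 0.37% of all tested genes were called, 0.0508% higher and 0.319% lower and 0.314% with an absolute log2 fold change of 1 or more. With replicate 2 of shScrambled left out, 8 HOX genes were called in Parental against shScrambled, and with replicate 2 of Control left out, 3 were called in Control against Parental. The summed markers of endothelium, mainly VWF, ranged from 5.05 to 5.39 RPM in shScrambled and from 2.24 to 3.06 RPM in the other 5 lines. VWF was lower in shAjuba1 (-1.30 ± 0.14, adjusted p = 1.65e-05) and shAjuba2 (-1.25 ± 0.19, adjusted p = 0.0103), whereas PECAM1, the other endothelial marker tested, was higher (2.49 ± 0.60, adjusted p = 0.00589 and 2.47 ± 0.46, adjusted p = 0.0214) but averaged 0.487 RPM or less in each line. Of the 7 markers of colon epithelium, 5 were called in shAjuba1, 3 higher and 2 lower, 1 lower in shAjuba2, and 6 in Parental against shScrambled, 5 higher and 1 lower. Their median log2 fold change was 0.07, -0.41 and 0.67 in these comparisons. VIL1, of the intestinal brush border, was called lower in each of them, with -1.41 ± 0.12 (adjusted p = 1.67e-06) in shAjuba1, -2.38 ± 0.16 (adjusted p = 0.000603) in shAjuba2 and -0.38 ± 0.08 (adjusted p = 0.000982) in Parental. EPCAM was the other marker called lower in shAjuba1. The part of these shifts in the HOX differences was not tested.

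The knockdown lines were also tested against each other. Of 37 HOX genes, 14 were called, 5 higher and 9 lower in shAjuba1, where 19.6% of all tested genes were called, 9.47% higher and 10.1% lower. With an absolute log2 fold change of 1 or more, 4 of 37 were called and 7.36% of all tested genes. HOXB accounted for 8 of them, 7 lower and HOXB2 higher (0.46 ± 0.12, adjusted p = 0.02196). HOXC6 (-1.05 ± 0.16, adjusted p = 0.00175) and HOXD4 (-1.24 ± 0.31, adjusted p = 0.0205) were lower in shAjuba1, and HOXA9, HOXA11, HOXD10 and HOXD11 were higher. The count of calls was 7 without replicate 1 of shAjuba1, 8 without its replicate 2 and 9 without its replicate 3. AJUBA itself averaged 50.1 RPM in shAjuba1 and 62.0 RPM in shAjuba2, a difference of -0.26 ± 0.12 (adjusted p = 0.141) that did not pass the threshold.

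The lists of related genes are read against the shares of all tested genes called, namely 38.4% (shAjuba1), 7.63% (shAjuba2) and 5.43% (Ajuba OE). Parental against shScrambled, with 30.7% of all tested genes called, also had calls in these lists. They were 4 of 9 cofactors (1 higher, 3 lower), 1 of 3 ParaHox and CDX genes and 5 of 9 genes beside the clusters (3 higher, 2 lower). Calls were also made for 6 of 20 Polycomb genes, 5 of 12 trithorax and demethylase genes and 5 of 15 retinoic acid genes. Of the cofactors PBX, MEIS and PKNOX, 5 of 9 were called in shAjuba1, 1 higher and 4 lower, where 18.2% of all tested genes were higher and 20.2% lower. PBX4 rose (1.06 ± 0.13, adjusted p = 4.97e-05), and PBX3 (-0.60 ± 0.10, adjusted p = 0.000395), MEIS2 (-0.62 ± 0.11, adjusted p = 0.0006102) and MEIS1 (-0.74 ± 0.15, adjusted p = 0.00197) fell. In shAjuba2 0 of 9 were called by edgeR, with 1 at an unadjusted p under 0.05 and 0 called by DESeq2. In Ajuba OE 1 of 8 was called, MEIS3, a MEIS homologue, with -1.23 ± 0.20 (adjusted p = 0.01196). Its levels were 32.4, 50.8 and 39.1 RPM in Control and 14.3, 19.4 and 16.2 RPM in Ajuba OE, with no overlap.

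The caudal gene CDX2, which sets intestinal identity and regulates posterior HOX genes, rose in Ajuba OE. It measured 15.5, 15.5 and 17.8 RPM in Control and 26.8, 23.8 and 22.2 RPM in Ajuba OE (0.64 ± 0.11, adjusted p = 0.0165 on the log2 scale). CDX2 also stands on the list of 7 markers of colon epithelium, whose log2 fold changes in Ajuba OE were all positive, with a median of 0.64. CDX2, CDH1 (0.77 ± 0.13, adjusted p = 0.0132) and VIL1 (1.03 ± 0.09, adjusted p = 0.00109) were called by edgeR and 5 of the 7 by DESeq2, and the summed markers ranged from 4850 to 5967 RPM in Control and from 5754 to 7008 RPM in Ajuba OE. The part of this shift in the HOX differences was not tested. CDX2 gave -0.23 ± 0.13 (adjusted p = 0.183) in shAjuba1 and -0.12 ± 0.16 (adjusted p = 0.678) in shAjuba2. Of the 6 genes of the ParaHox and CDX list, 3 passed the filter. PDX1 and GSX1 were called lower in shAjuba1 by edgeR (-0.61 ± 0.18, adjusted p = 0.0191 and -0.88 ± 0.31, adjusted p = 0.03996), whereas DESeq2 called 0 genes of the list there. In shAjuba2 0 of 3 were called by edgeR, with 1 at an unadjusted p under 0.05 and 0 called by DESeq2.

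Of the genes beside the clusters, 6 of 9 tested were called in shAjuba1, all lower, where 38.4% of all tested genes were called and 20.2% were lower. They included HIBADH (-1.17 ± 0.09, adjusted p = 1.21e-06) and SKAP2 (-0.78 ± 0.11, adjusted p = 0.000144) near HOXA and PRAC2 (-0.96 ± 0.20, adjusted p = 0.00214) near HOXB13. In shAjuba2 2 of 10 were called, HIBADH (-1.11 ± 0.21, adjusted p = 0.0225) and EVX1 (-1.54 ± 0.37, adjusted p = 0.0458), the even-skipped homologue next to HOXA13, where 7.63% of all tested genes were called. DESeq2 called 1 of the 10. In Ajuba OE edgeR called 0 of 8, with 0 at an unadjusted p under 0.05 and 0 called by DESeq2.

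Of the antisense and long non-coding genes of the clusters, 9 of 17 were called in shAjuba1, 3 higher and 6 lower, where 38.4% of all tested genes were called. Parental against the same shScrambled samples had 10 of 17 called, 2 higher and 8 lower, where 30.7% of all tested genes were called. In shAjuba1 the changes were as follows. HOXB-AS2 (-1.23 ± 0.10, adjusted p = 1.66e-06) and HOXB-AS3 (-0.82 ± 0.08, adjusted p = 4.59e-06) fell, HAGLR of the HOXD cluster rose (0.85 ± 0.11, adjusted p = 5.09e-05) and HOTAIR of the HOXC cluster, which binds Polycomb proteins, fell (-0.69 ± 0.09, adjusted p = 6.75e-05). HOTTIP, transcribed from the posterior end of HOXA beside HOXA13, also fell (-1.40 ± 0.21, adjusted p = 0.000199) and was picked out after its values were seen. edgeR called 0 of 17 in shAjuba2, with 5 at an unadjusted p under 0.05 and 3 called by DESeq2. It called 0 of 17 in Ajuba OE, with 2 at an unadjusted p under 0.05 and 0 called by DESeq2.

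Of 20 Polycomb genes, which silence the clusters, 4 were called in shAjuba1, 3 higher and 1 lower, a smaller share than the 38.4% of all tested genes. The smallest adjusted p were those of CBX2 (0.44 ± 0.10, adjusted p = 0.00507) and PHC2 (-0.35 ± 0.08, adjusted p = 0.00584). CBX2 was the 1 gene of 20 called in shAjuba2 (0.67 ± 0.13, adjusted p = 0.0267), and PHC2 the 1 gene of 20 called in Ajuba OE (0.57 ± 0.11, adjusted p = 0.0242). Of 12 trithorax genes and H3K27 demethylases, 6 were called in shAjuba1, 4 higher and 2 lower, again beside 38.4% of all tested genes. The histone methyltransferase gene KMT2D rose (0.37 ± 0.08, adjusted p = 0.00364) and its relative KMT2C fell (-0.33 ± 0.08, adjusted p = 0.00476). KDM6B, a demethylase of H3K27, rose in shAjuba1 (0.56 ± 0.10, adjusted p = 0.00103) and shAjuba2 (1.01 ± 0.24, adjusted p = 0.0449), where it was the 1 gene of 12 called. edgeR called 0 of 12 in Ajuba OE, with 0 at an unadjusted p under 0.05 and 0 called by DESeq2.

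In the retinoic acid pathway 13 of 15 tested genes were called in shAjuba1 by edgeR, 6 higher and 7 lower, and 9 by DESeq2, where edgeR called 38.4% of all tested genes. ALDH1A3, which makes retinoic acid, measured 496 and 500.2 RPM in shScrambled, 207, 197 and 209 RPM in shAjuba1 and 186, 139 and 189 RPM in shAjuba2. It fell in shAjuba1 (-1.30 ± 0.08, adjusted p = 1.03e-07) and in shAjuba2 (-1.59 ± 0.16, adjusted p = 0.00212), whereas Parental, with 268 and 277 RPM, also lay below shScrambled. CRABP2, which carries retinoic acid to its receptors, rose in shAjuba1 (1.73 ± 0.09, adjusted p = 2.34e-08), and its levels of 169 and 174 RPM in Parental were above the 65.0 and 59.4 RPM of shScrambled. In shAjuba2 4 of 15 were called, 1 higher and 3 lower, beside 7.63% of all tested genes, with DHRS3 (-0.84 ± 0.18, adjusted p = 0.0331) and RARB (-1.53 ± 0.33, adjusted p = 0.0344) among them. In Ajuba OE 2 of 14 were called, both lower. These were the receptor RARG (-0.50 ± 0.10, adjusted p = 0.0336) and CYP26A1 (-1.38 ± 0.31, adjusted p = 0.0485), which degrades retinoic acid.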

How the data were processed

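RNA was sequenced as stranded mRNA libraries with paired reads. The authors used HISAT2 (hg38) for alignment and featureCounts for counting, and the deposited values are raw counts per gene. The annotation release, the strand option and the tool versions are not given in the sources used here. All 16 samples were grouped by their labels, with no sample left out. Gene names, cluster positions and exon lengths came from GENCODE 44 (hg38), in which 56434 of the 66023 gene IDs were found.

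RPM was the count divided by the column total and multiplied by 1000000. Each pair of lines was fitted on its own with the quasi-likelihood test of edgeR 4.0.16 (R 4.3.3; TMM scaling, filterByExpr, Benjamini-Hochberg adjustment, threshold 0.05), and an F test over the 16 samples was used for any difference among the 6 lines. The steps were tested on simulated data. Between 30132396 and 69684675 pairs per sample were counted. Ratios of few counts carry exact 95% intervals that cover counting error only. The chi-square of replicate pairs was 1.87 to 14.3 times the sampling noise in 14 pairs, so none counted as 1 sample. Alternatives were DESeq2 1.42.0, other scalings and filters, one fit over the 16 samples, a replicate block, Parental as the control and single samples left out.

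Values in every sample are given for the 5 members of highest mean RPM in each cluster and for members called with a log2 fold change of 1 or more in size in a comparison of a knockdown line with shScrambled or of Ajuba OE with Control. A member that meets this rule is not reported here and is left out of the plots of single genes. From each gene list 2 to 4 genes with the smallest adjusted p in a comparison are named. The members and lists were chosen with earlier results of these data known.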

Additional observations from a re-analysis of the deposited data

Results flagged for a closer look

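The knockdown lines shAjuba1 and shAjuba2 were both set against shScrambled, and the difference between them was tested directly with edgeR. It passed the threshold in 14 HOX genes. The log2 difference, shAjuba1 minus shAjuba2, was -1.44 in HOXB13, -1.06 in HOXB4, -0.79 in HOXB5, -0.61 in HOXB6, -0.73 in HOXB7, -0.79 in HOXB8 and -0.61 in HOXB9. HOXB2, at the other side of the cluster, was 0.46. In HOXC, HOXC6 was -1.05. In HOXD, HOXD4 was -1.24, HOXD10 was 0.60 and HOXD11 was 0.62. In HOXA, HOXA9 was 0.38 and HOXA11 was 0.64. Both lines were made against AJUBA, which averaged 50.1 RPM in shAjuba1 and 62.0 RPM in shAjuba2. Its own log2 difference of -0.26 ± 0.12 did not pass the threshold (edgeR adjusted p = 0.141), and its part in the differences was not tested.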

How the results depend on the processing

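Over the 52 calls of named members, 601 values under other settings kept the direction and the call in 482 cases and the direction alone in 118. The 1 reversal was HOXD8 in shAjuba1, at -0.20 with Parental as the control. The number of HOX genes called moved as follows. In shAjuba1 against shScrambled it was 15 with Parental as the control and 18 to 24 with single samples left out. In shAjuba2 against shScrambled it was 9 with the replicate block, 8 without a filter on low counts, 9 in the fit over the 16 samples, 0 with Parental as the control and 0 to 11 with single samples left out. In Ajuba OE against Control it was 14 with the replicate block, where 5140 of the 21140 genes tested were called in all. Among these 14 were 6 of 10 HOXB genes, all lower. The number of HOX genes called was 8 in the fit over the 16 samples and 0 to 3 with single samples left out. Without replicate 2 of both these lines, a setting chosen after seeing the data, it was 3. In shAjuba1 against shAjuba2 it was 9 with the replicate block and 7 to 17 with single samples left out. In Parental against shScrambled it was 5 in the fit over the 16 samples and 8 to 15 with single samples left out. In Control against Parental it was 1 with the replicate block, 6 without a filter, 2 with DESeq2, 1 in the fit over the 16 samples and 0 to 3 with single samples left out. For any difference it was 27 to 34. The number called over all tested genes moved too. In shAjuba2 against shScrambled it was 1713 of 22446 in the main fit and 5377 with the replicate block. Without replicate 2 of shAjuba2 it was 4983 of 21969. The cause of these shifts was not tested.

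The sample titles number the replicates and do not say whether equal numbers are pairs. The numbers were not taken as pairs in the main fits, given the mixed correlations below. The mean correlation of deviations between same-numbered samples was 0.244 in Ajuba OE and Control, with pairs from -0.0474 to 0.616. It was -0.0192 in shAjuba1 and shAjuba2. In these comparisons 2 of 6 and 0 of 6 samples correlated best with their own number. With 2 pairs each it was 0.149 in shAjuba2 and shScrambled, where 4 of 4 samples correlated best with their own number, -0.0119 in shAjuba1 and shScrambled, -0.0811 in Parental and shScrambled and -0.15 in Control and Parental. TMM-scaled library sizes gave a summed HOXD level of 11.5 RPM in shScrambled and 18.0 RPM in shAjuba2. HOXB1, HOXD1, HOXD3, HOXD4 and HOXD12 had few reads, so their differences were measured with low precision.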
